A study of Mus musculus with 2 samples.

Results

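The BCL2-type survival proteins hold the mitochondrial outer membrane closed against the pore formers BAX and BAK, and they do so by binding these effectors and the BH3-only proteins that set them off. Myc drives growth and at the same time primes cells for this death pathway, so lymphomas of Eµ-Myc mice have long been used to study survival genes. Mouse cells have a BCL2 gene (Bcl2), genes for BCL-XL (Bcl2l1), BCL-W (Bcl2l2) and MCL1 (Mcl1), and several near copies of the A1 gene (Bcl2a1a, Bcl2a1b, Bcl2a1d).

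The members described here are these 7 genes, chosen by name, with each probe set whose platform gene symbols include 1 of them. They have 22 of the 45101 probe sets on the array. All 3 probe sets of the Bcl2a1 genes carry several of their symbols, so the copies are counted as 1 unit, which leaves 5 units among 18194 genes. Cultured B-lymphoma cells from lymph nodes of mice were measured on Affymetrix expression arrays. The labels give 1 array as Cdk4+/+:Eµ-Myc and 1 as Cdk4-/-:Eµ-Myc, so both lymphomas carry the Myc transgene, which the immunoglobulin heavy chain enhancer drives in B-lineage cells, and they differ by label in the kinase gene Cdk4. Mouse age and strain were not used here, and each group is 1 array, so a difference between the arrays cannot be told apart from a difference between any 2 tumours.

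The Cdk4 signal went against the labels, where its 3 probe sets read 1.18 to 3.71 under the wild type label and 4506 to 6958 under the null label. Each array is therefore named by its label, and exchanging the labels would turn each direction. Median signals were 62.6 and 61.7. A floor of 62.2, the median over both arrays, was taken as the lowest readable signal, and a gene above it on only 1 array has a bound in place of a fold. All 8 B-lineage markers measured, among them Cd79a, Cd79b, Pax5 and Ebf1, passed the floor on both arrays and lay within 2-fold between them.

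A stretch upstream of the Bcl2a1 copies is shown to let their likeness there be seen. It lies before the start sites, whereas probe sets read transcripts, so it does not bear on which copies a probe set reads. Bcl2a1c was not compared. The RefSeq promoter table, build GRCm38.p6, gives the 100 bases before the Bcl2a1a start at chr9:88956820-88956919 on the plus strand. The best ungapped matches lay at chr9:89199129-89199228 (plus strand) for Bcl2a1b and at chr9:88731851-88731950 (minus strand) for Bcl2a1d. Counted from the start site, the Bcl2a1b match ran from -144 to -45 and the Bcl2a1d match from -100 to -1. Capitals mark the 2 positions at which the copies differ.
Bcl2a1a: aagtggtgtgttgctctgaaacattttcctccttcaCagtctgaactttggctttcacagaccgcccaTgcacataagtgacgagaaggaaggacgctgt
Bcl2a1b: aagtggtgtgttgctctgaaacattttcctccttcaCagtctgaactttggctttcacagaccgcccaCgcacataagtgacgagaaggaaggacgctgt
Bcl2a1d: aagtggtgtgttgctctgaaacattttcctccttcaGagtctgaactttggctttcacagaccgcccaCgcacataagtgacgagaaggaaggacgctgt
Against Bcl2a1a, Bcl2a1b had 1 mismatch and Bcl2a1d 2 in 100 bases.

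Mcl1 was bright on both arrays and Bcl2a1 was not read on either. Bcl2 signals ran from below the floor to 278 and Bcl2l1 signals from below it to 498. Bcl2l2 was read on the array labelled null alone, at 136. Bcl2, Bcl2l1 and Mcl1 passed the floor on both arrays, and of these 3 only Bcl2l1 was 2-fold apart, 2.39-fold higher on the array labelled null. Among all genes so measured, 7.53% were 2-fold apart, made up of 4.26% higher on that array and 3.27% lower. Bcl2l2 had a bound of at least 2.18-fold higher on that array, and 33.8% of all genes read only on that array had a bound of 2-fold or more. By probe set, 1 of 11 read on both arrays was 2-fold apart, beside 6.74% of all probe sets, and 1 of 4 read on a single array had such a bound, beside 20.8%. Bcl2 was 1.60-fold higher and Mcl1 1.25-fold lower by their brightest probe sets, both under 2-fold. With 1 array a group there is no test of any of these differences.

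The measure of error was the disagreement between probe sets of a gene. Over 3082 genes with a pair of unshared probe sets above the floor, the log2 difference of a single probe set had an SD of 0.30. It was 0.36 where the dimmest signal of the pair was under 4 times the floor and 0.18 where it was at least 16 times the floor. Bcl2 and Bcl2l1 thus sit in the less precise range and Mcl1 in the more precise one. This error covers probe sets and leaves out the variation between cultures.

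**Figure D1:**
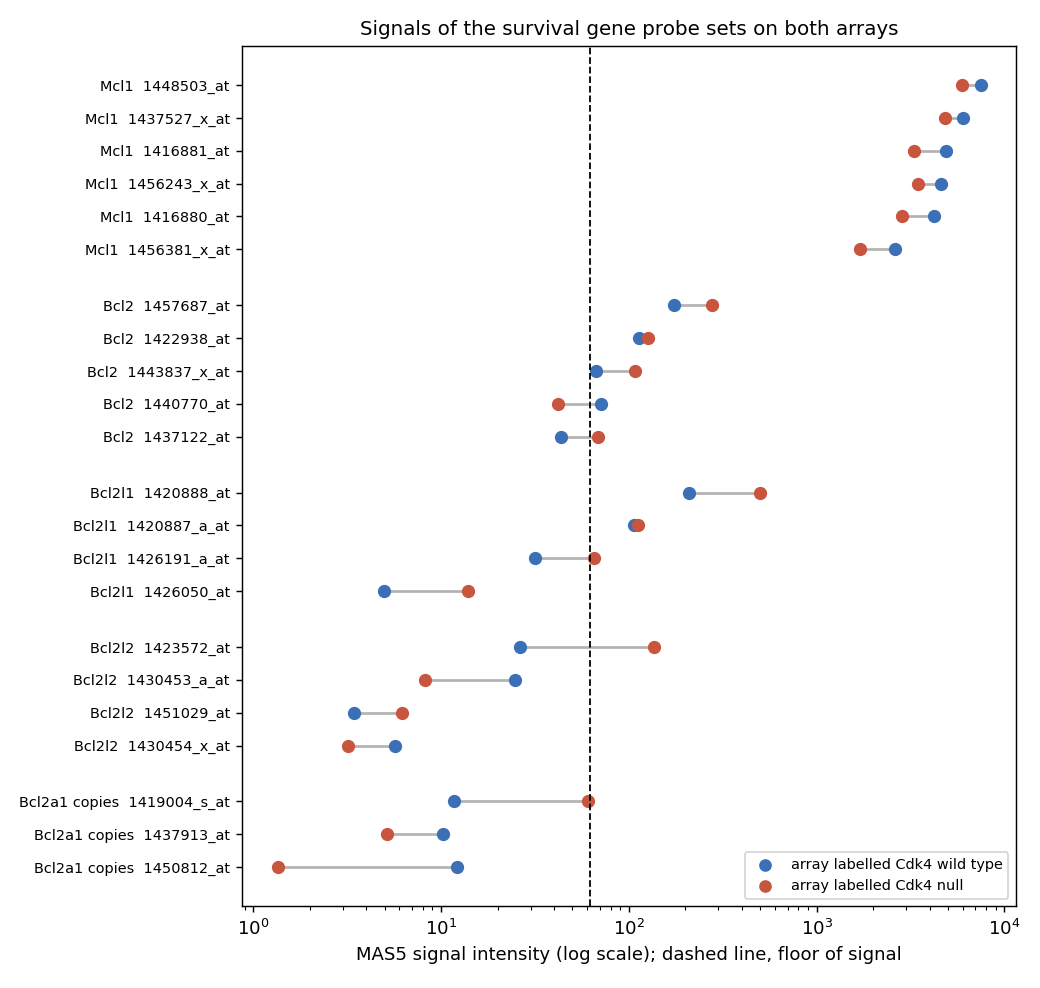
MAS5 signal intensity (log axis) of each of the 22 probe sets of the survival genes, with a blue point for the array labelled wild type, a red point for the array labelled null and a dashed line at the floor of 62.2. The 6 Mcl1 probe sets lie between 1709 and 7453 with the red point to the left in each, and the 3 Bcl2a1 probe sets lie below the floor on both arrays.

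Mcl1 encodes a short-lived survival protein that B-cell precursors and mature B cells depend on. By its brightest probe set Mcl1 stood at 7453 under the wild type label and 5961 under the null label; values below are given in that order. The other unshared probe sets read 4877 against 3299 and 4234 against 2845. Probe sets marked x, which can share sequence with other transcripts, read 6041 against 4825, 4572 against 3471 and 2620 against 1709. The array labelled null was lower on all 6 probe sets, with log2 differences from -0.62 to -0.32. Their mean was -0.47 ± 0.13 (SD over 6 probe sets of the same RNA, which are not replicates), or 1.38-fold lower. Of 141 genes with at least 6 probe sets above the floor, 21 were lower on all of them and 22 higher on all, so such agreement was not rare.

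Mcl1 lies on chromosome 3, where genes were lower on the array labelled null in general. The other 452 measured genes of chromosome 3 had a median log2 difference of -0.47, with quartiles of -0.73 and -0.21, and 83.0% of them were below 0. Mcl1, at -0.32, was above 65.5% of them. Of the 5 measured genes on each side of Mcl1, 9 of 10 were lower on the array labelled null, with a median of -0.46. Set against its own chromosome, the brightest Mcl1 probe set was 0.15 above the median and the mean of the 6 probe sets was 0.01 above it, with 3 of them above and 3 below. What moves the genes of this chromosome was not tested.

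**Figure D2:**
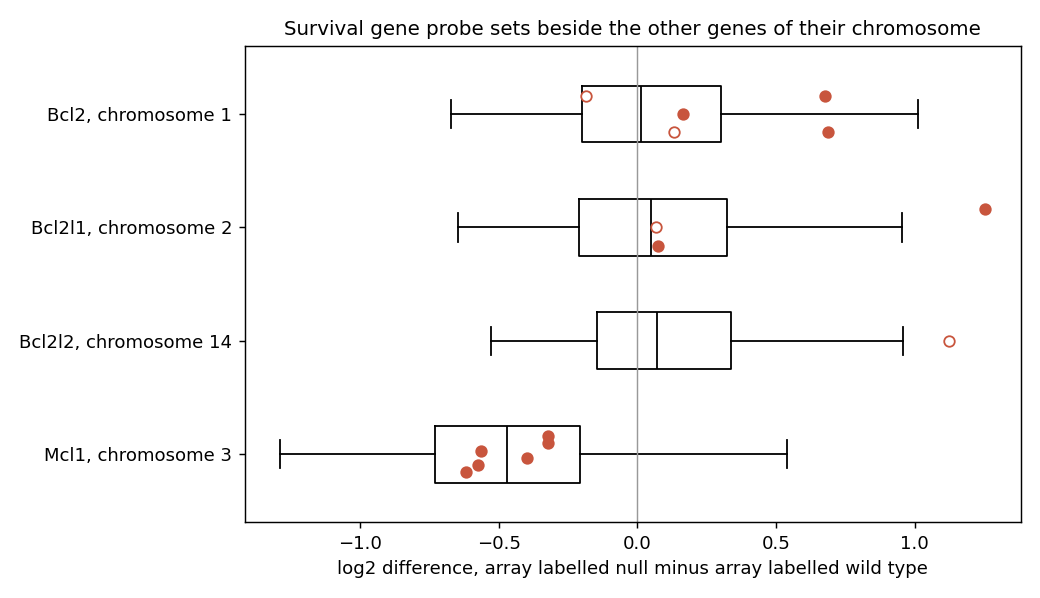
Log2 difference (array labelled null minus array labelled wild type) of the probe sets of 4 survival genes, as filled points where both arrays were above the floor and open points where the value is a bound. Boxes show the median and quartiles of the other measured genes of the same chromosome and whiskers their 5th and 95th percentiles. The 6 Mcl1 points lie inside the box of chromosome 3, whose median is -0.47, and the brightest Bcl2l1 probe set, at 1.26, lies beyond the whisker of chromosome 2.

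Bcl2 encodes the founding member of the family, a membrane-anchored inhibitor of BAX and BAK that cooperates with Myc in B-cell lymphoma. Its brightest probe set read 174 against 278. Another read 113 against 127, and the x-marked probe set read 66.6 against 107. On both arrays these 3 signals passed the floor, and each was higher on the array labelled null, with log2 differences of 0.68, 0.16 and 0.69. The remaining probe sets crossed the floor in opposite directions, at 70.7 against 41.8 and 43.3 against 68.2. No Bcl2 signal was above 278, and the mean difference over the 3 probe sets was 0.51 ± 0.30 (SD over probe sets). The other 525 measured genes of chromosome 1 had a median of 0.01, and Bcl2 was above 91.2% of them.

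Bcl2l1 encodes BCL-XL, which protects developing lymphocytes. Its brightest probe set read 208 against 498, a log2 difference of 1.26. An a-marked probe set, of the kind that reads several transcripts of a gene, read 106 against 112, a difference of 0.07. Another a-marked one read 31.5 against 65.1, so only its signal under the null label passed the floor, and the last was below the floor, at 4.96 and 13.9. The 2-fold difference of Bcl2l1 thus rested on 1 of 4 probe sets. The gap of 1.18 between the brightest and the first a-marked one was larger than in 95% of gene pairs as dim, which differed by less than 0.99, though a-marked probe sets are not among those pairs. Which transcripts of the gene each probe set reads was not analysed here. With the mean of the probe sets in place of the brightest one, the difference was 0.47 and Bcl2l1 was no longer 2-fold apart. A floor raised to the 75th percentile left only a bound of 0.12. On chromosome 2 the other 747 measured genes had a median of 0.05, and 96.4% of them lay below Bcl2l1.

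Bcl2l2 encodes BCL-W and is best known for its role in the testis. Its brightest probe set read 26.2 against 136. The other 3 probe sets were below the floor on both arrays, with 24.6 against 8.17, 3.46 against 6.21 and 5.71 against 3.18. Bcl2l2 was therefore read by 1 of 4 probe sets on 1 array, and values below the floor have no order. The bound of at least 2.18-fold rests on that reading alone.

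The Bcl2a1 genes encode A1 proteins, survival proteins that NF-kB induces in activated B cells and in myeloid cells. No Bcl2a1 probe set was above the floor. The probe set 1419004_s_at, named for Bcl2a1a, Bcl2a1b and Bcl2a1d, read 11.8 against 60.8, the latter just under the floor. The probe set 1437913_at, with the same symbols, read 10.2 and 5.18. The probe set 1450812_at, which also carries the symbol Bcl2a1c, read 12.1 and 1.35. Signals below the floor have no order, so no fold is given, and no copy can be told from the others.

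Markers of myeloid cells, which can also make A1, were higher on the array labelled null. Summed over the 12 markers, signal was 358 against 4096. Most of the latter came from the lysozyme genes Lyz1, at 5.74 against 1890 by an x-marked probe set, and Lyz2, at 70.1 against 1368. This sum and those below include signals under the floor. Of the 12, 3 passed the floor on both arrays, and 2 of these were 2-fold higher, beside 4.26% of all genes. Another 5 passed under the null label alone, and 2 of these had a bound of 2-fold or more, beside 33.8%. The granulocyte genes S100a8, S100a9, Mpo and Elane were below the floor on both arrays. Stromal and endothelial markers summed to 995 against 2137 over 8 genes. The collagen gene Col1a2 stood at 85.5 against 591 and Sparc at 4.55 against 273, while the endothelial genes Kdr and Cdh5 went the other way, at 101 against 8.96 and 68.2 against 20.2, and Pecam1 stood at 695 against 777. The T and NK markers, 7 genes, summed to 172 against 313, with Thy1 at 21.0 against 201, Cd8a at 81.6 against 63.7 and the other 5 below the floor on both arrays. The erythroid markers were below it on both arrays. The part of such cells in the signals of the survival genes was not tested, and more cells of a type and more RNA per cell cannot be told apart in bulk RNA.

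As to which survival gene each lymphoma expressed most, signals of different probe sets depend on the probes as well as on the RNA. On the array labelled wild type, the 2 brightest unshared probe sets of a gene differed 2.32-fold in signal in the median of 3082 genes, and by 11.3-fold at the 90th percentile. Genes are therefore given by their place among all probe sets of an array and not ranked by RNA amount. In signal, every Mcl1 probe set was brighter on both arrays than every probe set of the other members. The dimmest Mcl1 signals were 2620 and 1709, and the brightest of the others, from Bcl2l1, were 208 and 498. Mcl1 probe sets stood above 93.0% to 98.0% of probe sets on the array labelled wild type and above 89.4% to 97.4% on the array labelled null. The brightest Bcl2l1 probe set stood above 65.5% and 75.8%, and that of Bcl2 above 63.4% and 68.9%. That of Bcl2l2 stood above 60.3% on the array labelled null. Signals below the floor, those of Bcl2a1 among them, are given no place. With only 2 arrays, likeness of pattern to other genes comes down to 1 difference, and no gene was named for it.

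Genes that act on or with the survival proteins were described by 8 lists. Of their 57 genes, 52 had a probe set named for that gene alone, and the others were not analysed here. Of 44 that passed the floor on both arrays, 7 were higher by 2-fold under the null label and 2 were lower, 20.5% in all beside 7.53% of all genes. Bok and Cd40, the only list genes read on a single array, both had bounds past 2-fold, beside 27% of all genes so read. The median log2 difference of the 44 genes was 0.11, against 0.00 over all 9418 genes. The lists were chosen with results of these data known, so this share is a description.

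Of the 7 listed genes that act on the stability of the MCL1 protein, in either direction, 5 passed the floor on both arrays. Of these, 4 were lower on the array labelled null, where 50.0% of all genes were higher. Gsk3b, among the 4, was at -0.17, within the probe set SD of 0.30. By 2-fold 1 of the 5 was lower by its brightest probe set, beside 3.27% of all genes, and the list median was -0.79. That count leaves out Btrc, whose other probe sets were lower by more than 2-fold, as given below. Huwe1 encodes a ubiquitin ligase that marks MCL1 for degradation, and its brightest probe set read 11042 against 3891, 2.84-fold lower. The other Huwe1 probe sets read 1201 against 195, 660 against 334, 860 against 80.2 and 437 against 39.96, and all 5 were lower on the array labelled null. Huwe1 lies on chromosome X, where the median difference was -0.04. A large drop was not particular to Huwe1 there, with Ammecr1 at -2.97 and Apex2 at -2.94, while Arhgap4 was higher at 1.30. A median over the whole chromosome can hide a stretch whose genes moved together. Whether genes near Huwe1 moved with it was not tested.

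Fbxw7, which encodes the substrate receptor of another MCL1 ligase, stood at 1939 against 1007 and on its second probe set at 1149 against 635. It lies on chromosome 3 like Mcl1, where the median difference was -0.47. Btrc, which encodes the receptor beta-TrCP, stood at 997 against 578 (1.72-fold lower) by its brightest probe set, which is a-marked. Its other 4 probe sets were all lower by more than 2-fold. They read 651 against 207 and 150 against 72.9, and, as bounds, 190 against 60.2 and 162 against 31.8. Gsk3b, the kinase that marks MCL1 for these ligases, stood at 1400 against 1247, with 3 of 5 measured probe sets higher and 2 lower. Usp9x, a deubiquitinase that protects MCL1, stood at 1121 against 1257, with 5 of 6 measured probe sets higher. Arrays read RNA, so levels of the MCL1 protein were not measured.

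Of the pore formers Bak1 and Bok were measured, both higher on the array labelled null, and Bax was not analysed here. Bak1, an effector that MCL1 and BCL-XL hold in check, stood at 525 against 1353, 2.58-fold higher, and its second probe set read 130 against 189. Bok, a relative of BAX and BAK, read 23.5 against 200, at least 3.21-fold higher, by its only probe set, which is a-marked.

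Among the BH3-only antagonists, 7 of 8 were above the floor on both arrays, and 1 was 2-fold higher and 0 lower, with a median of 0.27. Pmaip1 encodes NOXA, which binds MCL1 and A1, and it stood at 67.6 against 232, 3.44-fold higher, with the first signal near the floor. Bbc3, which encodes PUMA, a binder of all survival proteins, stood at 312 against 179, 1.75-fold lower. Bcl2l11 encodes BIM, a main antagonist in B cells under Myc, and it stood at 2212 against 2577, with 4 of 5 probe sets higher and 1 lower. Bid stood at 2597 against 3182. The probe sets of Bad disagreed, at 274 against 377 and 357 against 234.

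**Figure D3:**
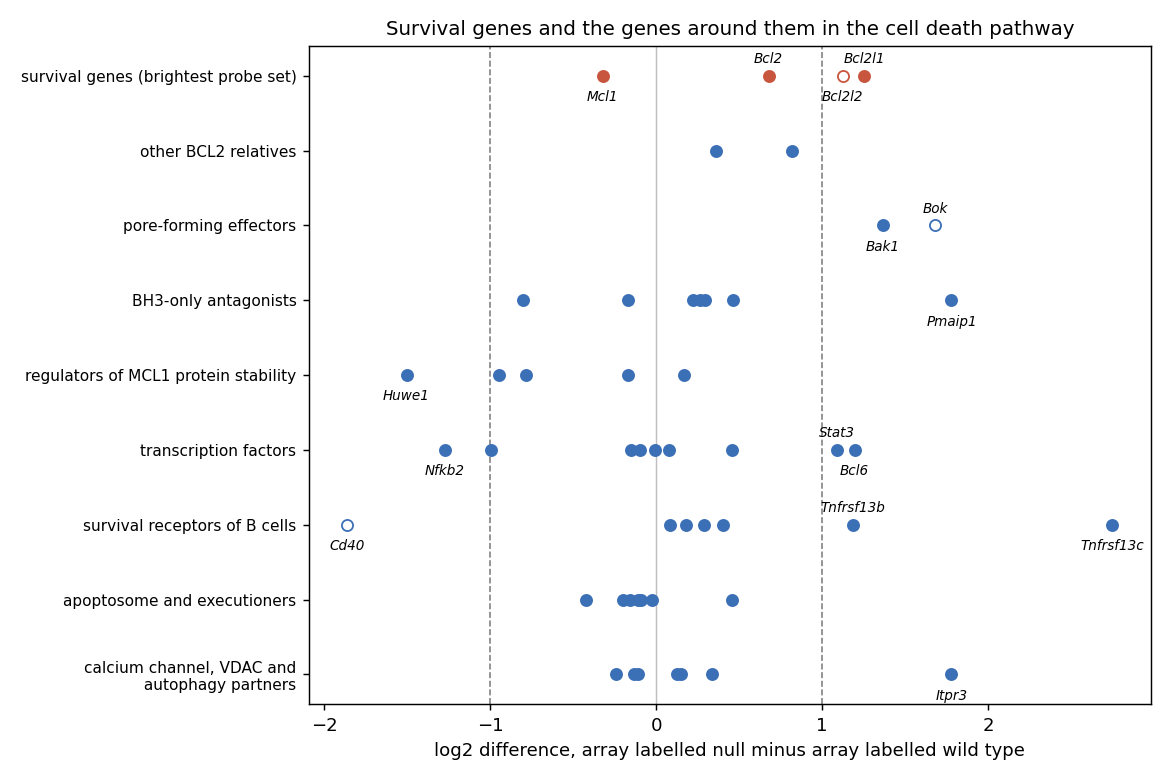
Log2 difference (array labelled null minus array labelled wild type) of the survival genes by their brightest probe set, in red, and of the genes of the 8 pathway lists, in blue. Filled points were above the floor on both arrays, open points are bounds, dashed lines mark 2-fold, and genes past 2-fold and the survival genes are named. Huwe1 lies at -1.50 and Pmaip1 at 1.78, on opposite sides of the survival genes, which run from -0.32 to 1.26.

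Factors that act on survival gene transcription differed both ways. Of 9 measured, 2 were higher by 2-fold under the null label and 1 was lower, and the median was -0.01. Stat3, which passes cytokine signals to survival genes, stood at 972 against 2067 (2.13-fold higher) and on another probe set at 1016 against 1952, while another read 93.7 against 92.0. Bcl6, a repressor of the germinal centre stage, stood at 124 against 284. Nfkb2, a subunit of the alternative NF-kB pathway, was 2.41-fold lower at 478 against 198 by an a-marked probe set. The other Nfkb2 probe set read 271 against 177, a log2 difference of -0.62, which is under 2-fold. The partner gene Relb was 1.99-fold lower at 328 against 165, just under 2-fold. Of the other NF-kB genes measured, Rela stood at 2179 against 2987 and Rel at 169 against 152.

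Receptors that sustain B cells were above the floor on both arrays for 6 of 7 genes. All 6 were higher on the array labelled null, as were 50.0% of all genes, and 2 of them by 2-fold, beside 4.26%. Cd79b at 0.09 and Cd79a at 0.18 did not exceed the SD of 0.18 found at 16 times the floor or more. Il7r at 0.29 was above that SD, though within the 0.30 over all pairs, and its other probe set was at 0.08. Il4ra was near the floor. Tnfrsf13c, the BAFF receptor gene, stood at 187 against 1258, 6.72-fold higher. Tnfrsf13b, which encodes the receptor TACI, stood at 1458 against 3319. Cd40, whose signal induces A1 and BCL-XL in B cells, was read only on the array labelled wild type, at 226 against 38.3, at least 3.63-fold lower on the other, and all 3 of its probe sets passed the floor under the wild type label alone. The interleukin 7 receptor gene Il7r, an inducer of BCL2 and MCL1 in precursors, stood at 3958 against 4828.

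The 7 apoptosome and executioner genes measured, of 9 listed, were all within 2-fold. Their median was -0.11, with Apaf1, the scaffold of the apoptosome, at 728 against 999 and the executioner gene Casp6 at 260 against 195. Of the 7 calcium channel, VDAC and autophagy genes 1 passed 2-fold, Itpr3, a calcium channel of the endoplasmic reticulum that BCL2 binds, at 610 against 2093. Vdac2, the channel that carries BAK in the mitochondrial membrane, stood at 12636 against 10674. The more distant BCL2 relatives Bcl2l12 and Bcl2l13 stood at 583 against 1028 and 1208 against 1549, and Bcl2l10, Bcl2l14 and Bcl2l15 were below the floor on both arrays.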

How the data were processed

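The authors deposited signal intensities on a linear scale, produced by MAS5 (version not given in the sources used here) according to the submitters' processing notes. Their mean after trimming 2% from each end was 500.003 on both arrays, so no rescaling was applied. Names came from GEO's annotation of the platform, with 34945 probe sets given 1 gene, 932 several and 9160 unnamed, and 64 control probe sets left out. Signals below the floor of 62.2 were set to it before log2. The brightest probe set stood for a gene. Names ending in a, s, x or f before the last suffix mark shared probe sets. Differences are array labelled null minus array labelled wild type. Calls were made at 2-fold, with Python 3.11.15, pandas 2.3.3 and numpy 2.4.6. The code was also run on simulated data with planted changes well past 2-fold and less noise than the probe set SD. That run checks the code only, and is no test of the differences between these 2 arrays. The members, lists and alternatives were chosen with earlier results of these data known. The text names every member, and of each list the genes past 2-fold or the 2 furthest from 0; a few others were chosen after their values were seen. MAS5 detection calls were not used here.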

Additional observations from a re-analysis of the deposited data

How the results depend on the processing

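No paired analysis was possible because each group held 1 array. The number of survival genes 2-fold apart was 2, and 0 with a floor at the 75th percentile (458) and 1 with the mean of probe sets. For probe sets it was 2, but 4 with the floor at the 25th percentile (14.1), 0 with the floor at the 75th and 5 at a 1.5-fold threshold. For the pathway genes it was 11, bounds included, and 6 with the floor at the 75th percentile. The difference of Bcl2 was 0.30 with the mean of probe sets and had no fold with the floor at the 75th percentile. That of Bcl2l1 was 0.12, a bound, with that floor and 0.47 with the mean of probe sets. That of Bcl2l2 was 2.37 with the floor at the 25th percentile and had no fold at the 75th. Mcl1 was 0.15 by its brightest probe set with chromosome medians set to 0, and 0.01 by the mean of its 6 probe sets. Bcl2a1 had no fold, but a bound of 2.10 with the floor at the 25th percentile and 0.84 with a pseudocount of 50 and no floor. The other 36 of the values recomputed stayed within the probe set SD of 0.30 or within 1.5 times the count, among them all those under quantile normalization and without shared probe sets. Signal near the floor limits Bcl2, Bcl2l1, Bcl2l2 and Bcl2a1, and the number of arrays limits all.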
